A study of Caenorhabditis elegans with 10 samples.

Results

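The genes osm-10, qui-1 and unc-42 of Caenorhabditis elegans were followed here. They were chosen by name, for their known parts in the avoidance behaviour and the fate of the ASH neurons. The choice was made with earlier results of these data known. They make up 3 of the 46272 genes of the authors' deposited table. RNA of wild-type animals, grown on standard plates and given no treatment, was profiled from cells sorted by fluorescence, which gave 5 libraries from ASH neurons marked by YFP and 5 from unmarked cells, called non-ASH here. For the YFP transgene the promoter, and for the animals the strain and age, are not stated in the labels. The table holds 1 FPKM value (a level scaled to transcript length and sequencing depth) for each group, with the fold changes and p-values of DESeq2 and Cuffdiff, so a level carries no standard deviation, and depth and the values of single libraries are unknown. The labels do not say whether libraries of a group stem from separate cultures or sorts, so the p-values may reflect technical spread alone.

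ASH is a pair of ciliated neurons in the head that senses high osmolarity, nose touch and many repellents, and drives backward movement through the command interneurons. In these cells osm-10 encodes a cytosolic protein needed for avoidance of high osmolarity but not of nose touch, and it is also known from the ASI, PHA and PHB neurons. The gene qui-1, named for mutants that do not avoid quinine, encodes a WD-repeat protein used in the avoidance of bitter compounds. The gene unc-42 encodes a paired-like homeodomain protein that sets the fate of ASH and of the command interneurons AVA, AVD and AVE, and mutants lack the chemoreceptors SRA-6 and SRB-6 in ASH.

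The genes osm-10 and unc-42 were higher in the ASH fraction, whereas qui-1 stood near 1 FPKM in both fractions and did not pass the test. Calls rest on DESeq2, the authors' count-based test, with an adjusted p below 0.05 per the authors' deposited table. Of the 3 genes, 2 were called higher and 0 lower (0 lower also by Cuffdiff's q or an unadjusted p below 0.05), beside 5.32% higher and 4.44% lower among the 16802 genes that have an adjusted p, called tested here. By Cuffdiff's q the same 2 were called higher, beside 3.58% of tested genes higher and 3.53% lower. The count was also 2 at an adjusted p below 0.01 (2.67% of tested genes higher, 2.06% lower), with a change of at least 2-fold required (4.90% and 4.08%), and among genes of at least 5 FPKM in either group (7.24% and 5.67%), a floor that qui-1 does not reach.

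**Figure D1:**
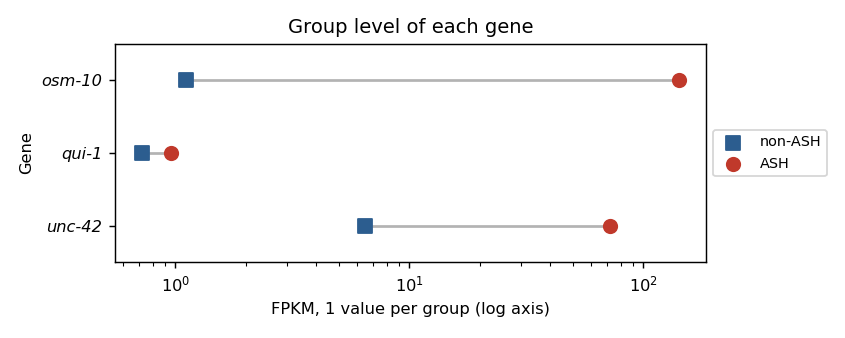
FPKM of osm-10, qui-1 and unc-42 in the ASH (red circles) and non-ASH (blue squares) groups on a log axis, with 1 value per group and no error. The distance between the symbols is widest for osm-10, at 142 against 1.12 FPKM, and narrow for qui-1, at 0.962 against 0.721.

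The osmotic avoidance gene osm-10 (WBGene00003890, chromosome III) was listed at 142 FPKM in ASH against 1.12 FPKM in non-ASH, per the authors' deposited table, a ratio of 127. The DESeq2 log2 fold change was 5.34, which is 40.4-fold, with an adjusted p of 1.77e-11, per the authors' deposited table. The table gives no standard error. If its p is taken as that of a Wald test, the p and the fold change together imply a standard error of 0.70 on the log2 scale and an unadjusted 95% interval from 3.97 to 6.71. The lower end of that interval is a 15.7-fold difference. The sources used here do not say whether DESeq2's fold changes were shrunken toward 0, so that end is no firm bound. The same holds for the interval of unc-42 below. By fold change osm-10 ranked 57 among the tested genes, and by adjusted p it ranked 20. In ASH its level was above that of 93.6% of tested genes, and in non-ASH above that of 25.7%. Only 6 tested genes had both a higher ASH level and a larger fold change than osm-10, per the authors' deposited table, namely the neuropeptide gene nlp-76 and the genes C10C5.7, T23B3.6, M04B2.6, T05C7.4 and T10D4.15. Cuffdiff gave osm-10 a log2 fold change of 6.08, computed with 1 added to each FPKM, and a q of 0.00101, per the authors' deposited table. That q is the smallest there, and other genes of both directions share it, such as osm-9 (higher) and phat-3 (lower).

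The homeobox gene unc-42 (WBGene00006778, chromosome V) was listed at 72.3 FPKM in ASH against 6.46 FPKM in non-ASH, per the authors' deposited table, a ratio of 11.2. It was thus the more abundant of the pair in non-ASH and the less abundant in ASH. Its DESeq2 log2 fold change was 3.03, which is 8.15-fold, with an adjusted p of 0.000577, per the authors' deposited table. The implied standard error was 0.69, with an interval from 1.68 to 4.38 that overlaps the interval of osm-10, and the difference between the 2 fold changes was not tested. By fold change unc-42 ranked 215 among the tested genes. Its level lay above that of 87.7% of tested genes in ASH and 49.5% in non-ASH. Cuffdiff also called it, with a q of 0.0179, per the authors' deposited table. The table lists 5 transcripts for unc-42, 3 for qui-1 and 1 for osm-10, and the values are per gene, so no transcript could be told from another.

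The bitter avoidance gene qui-1 (WBGene00004265, chromosome IV) was listed at 0.962 FPKM in ASH against 0.721 FPKM in non-ASH, per the authors' deposited table, a ratio of 1.33. Its DESeq2 log2 fold change of 0.40 did not pass the test (adjusted p = 0.708), and neither did Cuffdiff's of 0.19 (q = 0.894), per the authors' deposited table. The implied standard error was 0.60 and the interval ran from -0.78 to 1.58. If the p is that of a Wald test, this spans a level in ASH from 1.72-fold lower to 2.99-fold higher. Whether the fold change was shrunken toward 0 is not given, so the range is no firm bound. Its ASH level exceeded that of 27.2% of tested genes. Whether ASH uses the gene cannot be read from a level this low.

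The implied errors can be set beside those of genes at the same level. Tested genes were divided by mean level into 10 equal bins. Among the 1680 genes in the bin of osm-10, 97.0% had a smaller implied standard error than osm-10 did, and the median was 0.28. In the bin of unc-42 the share was 95.1% and the median 0.31. In the bin of qui-1 it was 12.9% and the median 0.86. Thus osm-10 and unc-42 had larger errors than most genes of their mean level, and qui-1 a smaller one. The bins do not match genes on the lower group. In non-ASH, osm-10 and unc-42 stood above only 25.7% and 49.5% of tested genes. Whether their errors are large for genes that low in non-ASH was not tested. Over all tested genes with such a value the implied error had a median of 0.52 and did not exceed 1.07.

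**Figure D2:**
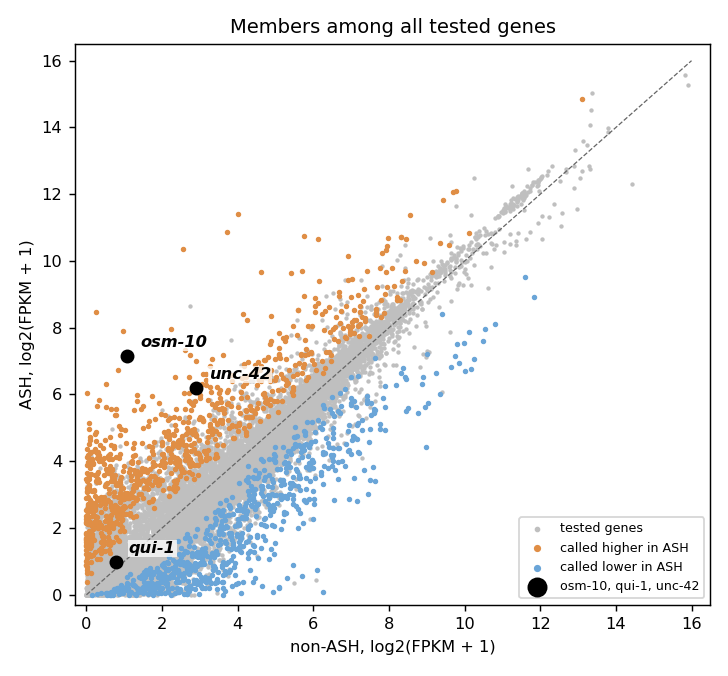
Level of every tested gene in non-ASH (x axis) and ASH (y axis) as log2(FPKM + 1), with genes called higher in ASH in orange, genes called lower in blue and the 3 members in black. The dashed line marks equal levels. The genes osm-10 and unc-42 lie above it among the orange points, and qui-1 lies beside it near the origin.

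The genes with the most similar values were taken as the 3 protein-coding genes nearest to each member over the 2 group levels and the fold change. The nearest to osm-10 were ZK856.6, at 105 FPKM in ASH against 0.792 in non-ASH with a DESeq2 log2 fold change of 5.68, then T10D4.15 (5.37) and F59A1.11 (6.44), per the authors' deposited table. Cuffdiff called the last 2 and did not call ZK856.6 (q = 0.549), per the authors' deposited table. Those nearest to unc-42 were R02F11.2 (2.96), the collagen gene dpy-14 (3.01) and the nuclear hormone receptor gene nhr-57 (3.02), by DESeq2 log2 fold change, per the authors' deposited table, and both tools called all 3. Beside qui-1 stood nas-28, numr-1 and fbxa-188, which the authors' deposited table lists between 0.904 and 0.964 FPKM in ASH, and none of them was called by either tool. Likeness over 2 group values is a description of level only.

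Genes of the osm class, named like osm-10 for mutants that fail to avoid high osmolarity, encode a channel, parts of the cilium and secreted or epidermal proteins. All 10 were tested, 5 were higher by DESeq2 and 0 lower (0 also at an unadjusted p below 0.05 and by Cuffdiff's q), and the median DESeq2 log2 fold change was 1.91, against -0.09 over all tested genes. Over all tested genes DESeq2 called 5.32% higher and 4.44% lower. The 5 called higher include osm-10 itself, and osm-9 is also counted among the signalling genes below. This list and those below were chosen with earlier results of these data known. The channel gene osm-9, which encodes a TRPV subunit, stood at 9.05 FPKM in ASH against 0.864 in non-ASH, and its log2 fold change was 3.04 (adjusted p = 0.000416), per the authors' deposited table. The cilium genes osm-6, for a particle subunit of intraflagellar transport, osm-12, for a BBSome subunit, and osm-3, for a kinesin motor, reached adjusted p of 0.0477, 0.0417 and 0.0144, with 6.39, 3.52 and 4.48 FPKM in ASH against 1.48, 0.722 and 1.23 in non-ASH, per the authors' deposited table, and Cuffdiff called none of these 3. The transport genes osm-5 and osm-1 were not called, osm-5 at 2.04 (adjusted p = 0.133) and osm-1 at 0.14 (0.871), per the authors' deposited table. The remaining genes osm-7, osm-8 and osm-11 are known from the epidermal control of osmotic stress responses, and none was called, with log2 fold changes of -0.23, 1.82 and -0.30, per the authors' deposited table. The most abundant osm gene was osm-11, a secreted protein gene, at 481 FPKM in ASH against 575 in non-ASH, per the authors' deposited table. The ratio of group FPKM was 127 for osm-10 and 10.5 for osm-9.

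Genes for the signalling machinery of ASH avoidance were higher in 10 of 22 tested cases by DESeq2 and lower in 0 (2 at an unadjusted p below 0.05, 0 by Cuffdiff's q), with a median DESeq2 log2 fold change of 1.67. The DESeq2 shares over all tested genes were 5.32% higher and 4.44% lower. The 10 genes called higher comprised the channel genes ocr-2 and osm-9, the G protein genes odr-3, gpa-11, gpa-13 and gpc-1, the regulators arr-1 (arrestin) and rgs-3, the neuropeptide gene nlp-3 and the chemoreceptor gene sra-6. Their log2 fold changes ran from 1.17 for arr-1 to 4.10 for sra-6, per the authors' deposited table, all below the 5.34 of osm-10. In level, gpc-1 at 96.8 FPKM and nlp-3 at 489 FPKM in ASH were the only 2 of these 10 above unc-42, per the authors' deposited table. The other 12 lay between -1.07 for the DEG/ENaC gene deg-1 and 2.29 for gpa-3, per the authors' deposited table, the latter with an adjusted p of 0.0543. By Cuffdiff, gpa-3 passed (q = 0.00101), whereas gpa-13 (q = 0.458), arr-1 (0.106) and sra-6 (0.273) did not, per the authors' deposited table. Among the 12 not called by DESeq2 were the receptor kinase gene grk-2 (-0.10) and the kinase genes pkc-1 (-0.28) and egl-4 (-0.50), as the authors' deposited table gives them.

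**Figure D3:**
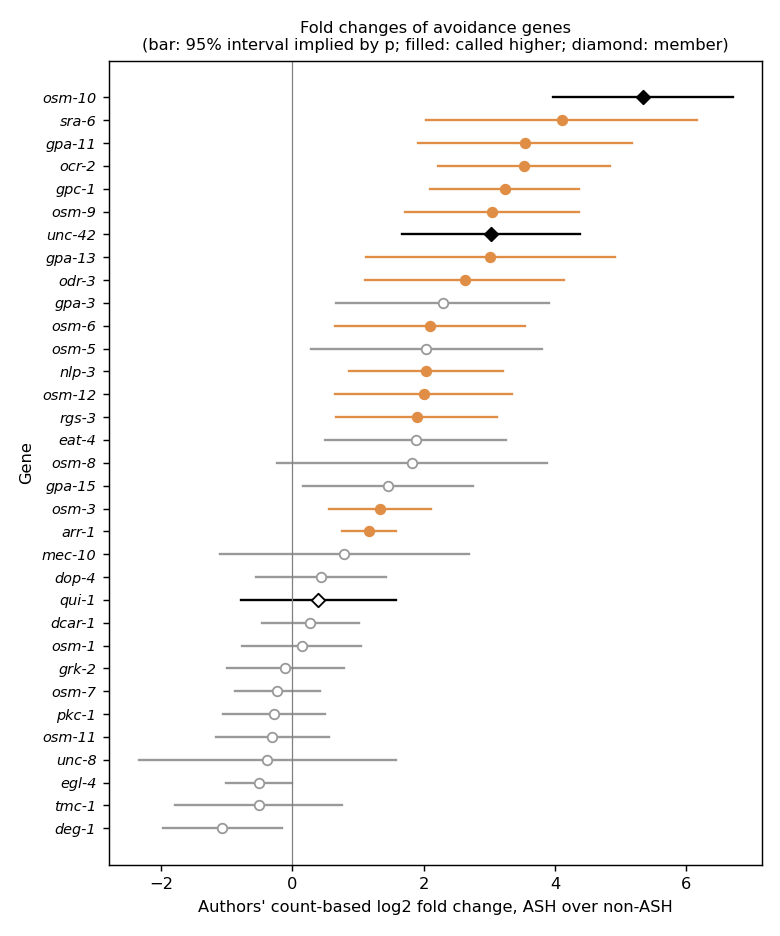
DESeq2 log2 fold change (ASH over non-ASH) of the members, the osm class and the ASH avoidance signalling genes that were tested, with bars for the unadjusted 95% interval implied by the p-value. Diamonds mark the 3 members and filled symbols the genes called higher. The top position belongs to osm-10 at 5.34, unc-42 lies at 3.03 beside osm-9, and the bar of qui-1 crosses 0.

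Receptor genes that need unc-42 gave mixed values. The chemoreceptor gene sra-6 was listed at 3.54 FPKM in ASH against 0.0477 in non-ASH and was higher (log2 fold change 4.10, adjusted p = 0.00307), per the authors' deposited table, though Cuffdiff did not call it (q = 0.273). The chemoreceptor gene srb-6, at 0.375 FPKM against 0.0221, had no adjusted p, with a log2 fold change of 1.42, per the authors' deposited table. The glutamate receptor gene glr-1, which depends on unc-42 in the command interneurons rather than in ASH, was listed at 0.154 FPKM in ASH against 0.568 in non-ASH and did not pass (log2 fold change -1.21, adjusted p = 0.46), per the authors' deposited table.

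Among 15 paired-type homeobox genes, unc-42 had the highest level in ASH. All 15 were tested, 2 were higher and 1 was lower, with a median DESeq2 log2 fold change of 0.16. Among all tested genes 5.32% were called higher and 4.44% lower. The second gene called higher was ceh-8, at 4.53 FPKM in ASH against 0.665 in non-ASH, and its log2 fold change was 2.55 (adjusted p = 0.0149), per the authors' deposited table. The gene called lower was vab-3, a Pax6 homologue of head development, at 2.12 FPKM in ASH against 8.39 in non-ASH with -1.54 (adjusted p = 0.0273), per the authors' deposited table, and Cuffdiff did not call it (q = 0.074). In non-ASH vab-3 stood above unc-42, and in ASH unc-42 stood above the summed level of the other 14, since the 15 together came to 92.8 FPKM. The other 12 ranged from -1.50 to 1.52, per the authors' deposited table.

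Of the 12 protein-coding genes that flank the members, 2 on each side in the Ensembl annotation of WBcel235, 10 had an adjusted p. DESeq2 called 1 higher and 0 lower, beside 5.32% and 4.44% of all tested genes. The called gene was the chemoreceptor gene srd-10, the next after qui-1 in chromosome order and on the same strand. It was listed at 6.41 FPKM in ASH and at 0 in non-ASH with a DESeq2 log2 fold change of 7.27 (adjusted p = 1.37e-09), per the authors' deposited table. Beside unc-42, the nearest genes F58E6.11 and F46B6.2 had -1.11 and -1.81 and were not called, per the authors' deposited table. Just before osm-10 in chromosome order, ztf-31 had 0.37 (adjusted p = 0.777), per the authors' deposited table. Its other neighbour, zmp-6, of the matrix metalloproteinase family, lies on the opposite strand and overlaps osm-10 in that annotation. It was listed at 9.63 FPKM in ASH against 0.555 in non-ASH, a ratio of 17.3, yet its DESeq2 log2 fold change was 0.96 (adjusted p = 0.536) and Cuffdiff did not call it (q = 0.17), per the authors' deposited table. The libraries were strand-specific per the labels, but no source used here says whether the counting used strand, so reads from the overlap could belong to either gene.

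**Figure D4:**
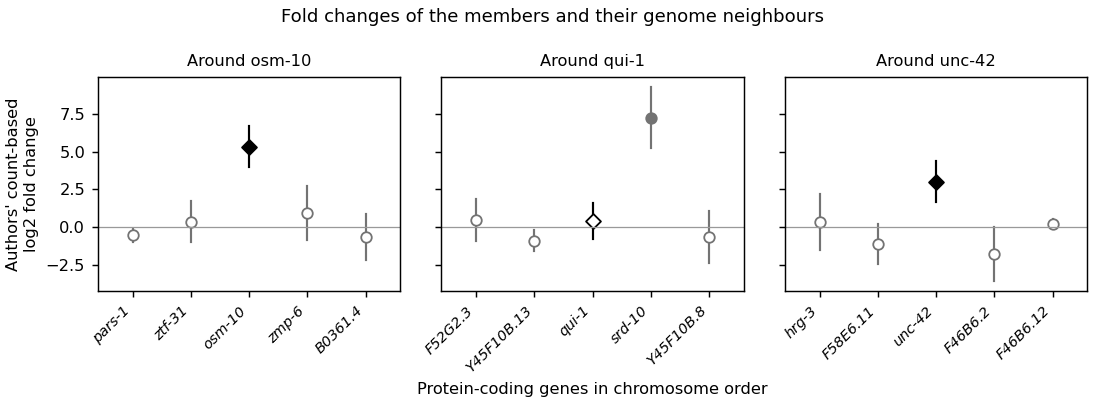
DESeq2 log2 fold change (ASH over non-ASH) of osm-10, qui-1 and unc-42 (diamonds) and of the 2 protein-coding genes on each side (circles), in chromosome order and not to scale. Bars are unadjusted 95% intervals implied by the p-value and filled symbols are called higher. Beside osm-10 and unc-42 no neighbour was called, and beside qui-1 the neighbour srd-10 was, at 7.27.

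Other cell types that share these genes, or that a sort can carry along, were read from marker lists. The shares called over all tested genes were 5.32% higher and 4.44% lower by DESeq2. By Cuffdiff's q they were 3.58% and 3.53%. The YFP transgene itself, on which the cells were sorted, was listed at 1612 FPKM in ASH against 68.1 in non-ASH, per the authors' deposited table, a ratio of 23.7. For ASI, which also uses osm-10, 0 of 3 tested markers were called by DESeq2 (2 lower at an unadjusted p below 0.05, 1 lower by Cuffdiff's q), and the summed level of 4 was 44.99 FPKM in ASH against 155 in non-ASH. Of these sums daf-28 alone made up 40.6 and 143 FPKM, per the authors' deposited table. Among 6 command interneuron markers 1 was lower by DESeq2, rig-3, and 0 higher (2 lower at an unadjusted p below 0.05, 1 lower by Cuffdiff's q). The log2 fold change was positive for 0 of the 6, with a median of -1.10. Their summed level was 85.5 against 133 FPKM. The larger part of both sums was flp-18, at 64.6 and 90.3 FPKM, per the authors' deposited table. Of 14 pan-neuronal genes 1 was higher by DESeq2, unc-31, and 0 lower (3 higher at an unadjusted p below 0.05, 2 higher by Cuffdiff's q). Their summed level was 1234 FPKM in ASH against 672 in non-ASH, of which egl-21 made up 491 and 169. The log2 fold change was positive for 7 of the 14, with a median of 0.04. Intestine markers had 3 of 10 higher by DESeq2 and 0 lower, with a sum of 6591 against 1792 FPKM. Of that ASH sum the protease gene asp-1, which Cuffdiff did not call (q = 0.111), made up 3660 FPKM, and act-5, at 27.6 FPKM in ASH against 66.6, was the 1 marker lower by Cuffdiff (q = 0.0213) and at an unadjusted p below 0.05, per the authors' deposited table. Pharynx had 5 of 8 lower by DESeq2 (7 at an unadjusted p below 0.05, 6 by Cuffdiff's q), with 31.01 against 428. In the non-ASH sum phat-3 made up 174 FPKM and phat-4 196, per the authors' deposited table. Coelomocyte markers had 3 of 3 lower by DESeq2 and by Cuffdiff's q. Glia had 3 of 5 lower by DESeq2 (2 by Cuffdiff's q), and grl-2 went the other way at 1.59, not called, per the authors' deposited table. Epidermis had 1 of 8 higher and 2 lower by DESeq2 (3 lower at an unadjusted p below 0.05). Body wall muscle had 1 of 7 higher. None of the markers in these 9 lists was listed at 0 in either group. In sorted pools a change in the share of a cell type and a change of RNA per cell cannot be told apart, and the part of other cells in the values of osm-10, qui-1 and unc-42 was not tested.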

How the data were processed

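Strand-specific libraries of poly(A)-selected RNA from 10 samples were sequenced, per the labels' protocols. Alignment tools in the submitters' processing notes are Bowtie2 2.2.1 and TopHat2 2.0.13, and the authors' tests, per the labels, were HTSeq with DESeq2 and Cufflinks with Cuffdiff. Build, annotation and model settings are not given in the sources used here. Analysis began from the authors' deposited table of 46273 rows, 1 a repeat that was dropped, which gives FPKM per group with 1 added by the authors, which was subtracted here. Its log2 fold changes, p-values and q-values were deposited by the authors for each tool, and whether DESeq2's fold changes were shrunken is not given. The authors' DESeq2 adjusted p equals a Benjamini-Hochberg adjustment over 16802 genes. No values of single libraries were used, so the tests foreseen on counts could not be run and no interval for depth is given.

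Computed here were ratios, ranks, distances over log2(FPKM + 1) and fold change, and standard errors implied by a Wald p. A run on simulated data checked the arithmetic only, because its p-values were Wald p-values by construction. It cannot show whether the deposited p-values yield valid errors. Named genes were the members, the osm class, list genes past the threshold, with others by range or example, the 3 nearest genes per member and the genome neighbours, whose number per side was set after values were seen. Symbols were matched by WormBase identifier for 43253 of 46272 genes. The members and all 13 lists were chosen with earlier results of these data known. Alternatives were Cuffdiff's q, an adjusted p under 0.01, at least 2-fold, a floor of 5 FPKM, and other pseudocounts. Python 3.11.15, pandas 2.3.3 and scipy 1.17.1 were used.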

Additional observations from a re-analysis of the deposited data

How the results depend on the processing

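The calls of osm-10 and unc-42 and the missed call of qui-1 kept their direction and their side of the threshold under Cuffdiff's q, an adjusted p under 0.01 and a change of at least 2-fold, and those of osm-10 and unc-42 also under a floor of 5 FPKM, which removes qui-1. The log2 ratio of FPKM for osm-10, 6.08 with a pseudocount of 1, was 6.87 with 0.1 and 4.59 with 5, a shift larger than its implied standard error, while the ratios of unc-42 (2.75 to 3.47) and qui-1 (0.06 to 0.37) moved by less than theirs. The osm class count of 5 became 2 with Cuffdiff's q, 2 at an adjusted p under 0.01 and 3 with the floor. The signalling count of 10 became 6 at 0.01 and 8 with Cuffdiff's q, which adds gpa-3 and drops gpa-13, arr-1 and sra-6. The single receptor gene that needs unc-42 became 0 with Cuffdiff's q and 0 with the floor, and the paired-type homeobox count of 2 became 1 at 0.01 and 1 with the floor. The lower call of vab-3 was lost with Cuffdiff's q and at 0.01. With the floor and the stricter threshold this follows from their construction, and for Cuffdiff's q the cause was not tested. No paired analysis was possible because the table holds 1 value per group, and for the same reason libraries could not be left out in turn. Depth is unknown.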
